A study of Mus musculus with 6 samples.

Results

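The shape of the mitochondrial inner membrane, and the fusion and division of whole mitochondria, depend on a small number of proteins. Of these, 10 genes were followed here among the 26191 genes in the expression table of the embryonic hearts. They were taken by symbol, with earlier results of these data known, because the study examined cristae, the folds of the inner membrane, in these mutant hearts. The genes were Immt, Minos1, Chchd3, Chchd6, Apoo and Apool, which encode subunits of the MICOS complex, and Opa1, Mfn1, Mfn2 and Dnm1l, which encode large GTPases. All 10 were in the table and all 10 passed the filter on low values.

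MICOS, the mitochondrial contact site and cristae organizing system, sits at the narrow necks by which cristae join the inner boundary membrane. Its core subunits MIC60 (Immt) and MIC10 (Minos1) bend the membrane and link it to the outer membrane. OPA1 fuses inner membranes and keeps cristae necks tight, the mitofusins MFN1 and MFN2 fuse outer membranes, and DRP1 (Dnm1l) constricts mitochondria for division. Heart muscle relies on dense cristae for oxidative ATP production, and loss of OPA1, of both mitofusins or of DRP1 in cardiomyocytes is known to harm the mouse heart.

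RNA-seq was done on whole hearts at embryonic day 12. The control group was Mrps5 fl/fl, with both alleles floxed and no Cre, and the Mrps5 cKO group was Mrps5 fl/fl; cTNT-Cre, in which the cardiac troponin T promoter drives Cre, so that other cell types of the heart keep the gene. Mrps5 encodes a protein of the small subunit of the mitochondrial ribosome. Each group had 3 replicates, each made by pooling 5 hearts, and controls and mutants were littermates of the same crosses, collected close to the stage at which mutant embryos die.

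Levels are given as FPKM, which scales fragments to the length of a transcript and the size of a library, summed over the transcript models of a gene. The sum over all genes ran from 454692 to 515952 FPKM per library, and the read depth is unknown. All 12 cardiomyocyte markers fixed for the check were present in every library, the lowest at 30.4 FPKM. The targeted gene, Mrps5, stood at 9.65, 11.4 and 10.4 FPKM in control replicates 1, 2 and 3, and at 5.28, 7.41 and 10.4 FPKM in the cKO replicates (log2 fold change -0.44, limma adjusted p = 0.338). It was -0.23 without cKO replicate 1 and -0.66 without the library labelled cKO replicate 3 (limma adjusted p = 0.0682), and summed FPKM may also count Mrps5 transcripts that lack the floxed part. The library labelled cKO replicate 3 was thus at the level of the controls for the targeted gene, against its label, and whether the label is right could not be settled here. Its Tnnt2, the cardiac troponin T gene, was at 683 FPKM, beside 617 and 667 FPKM in the other cKO libraries and 948 to 1044 FPKM in the controls. The other markers did not all follow it. Tnni1 there was at 468 FPKM, beside 289 and 305 FPKM in the other cKO libraries and 471 to 515 FPKM in the controls. Myh6, at 797 FPKM, was above all controls (579 to 763 FPKM). Ttn, at 372 FPKM, and Myl2, at 1944 FPKM, were below all controls (547 to 693 and 2166 to 2795 FPKM). Erythroid markers made up 12.0 to 13.3% of the summed FPKM in the controls, 23.5% and 22.0% in cKO replicates 1 and 3, and 10.8% in cKO replicate 2. The 12 cardiomyocyte markers summed to 11259 to 13444 FPKM in the controls and to 9052 to 10854 FPKM in the cKO libraries, with no overlap. The part of the cardiomyocyte level in the results below was not tested, and in whole hearts fewer cells of a type and less RNA per cell cannot be told apart.

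None of the 10 genes passed the test between cKO and control hearts at an adjusted p under 0.05 (limma on log2 of FPKM + 1, Benjamini-Hochberg adjustment over the 13260 genes tested), the line that 0.083% of all genes passed. At an unadjusted p under 0.05 there was 1 gene of the 10, Chchd6, against 15.0% of all genes in either direction and 9.43% in the lower direction. The mean was lower in cKO hearts for 7 genes and higher for 3, and 55% of all genes tested had a log2 fold change below 0. The median log2 fold change of the 10 genes was -0.03, beside -0.02 over all genes tested. On FPKM summed by gene, every one of the 10 log2 fold changes was under 0.25 in size, as were those of 78.2% of all genes, and the largest was 0.22. The 95% intervals of the 10 genes reached from -0.58, for Apoo, to 0.36, for Immt, so changes of that size could not be told from none in those genes with 3 libraries a group.

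**Figure D1:**
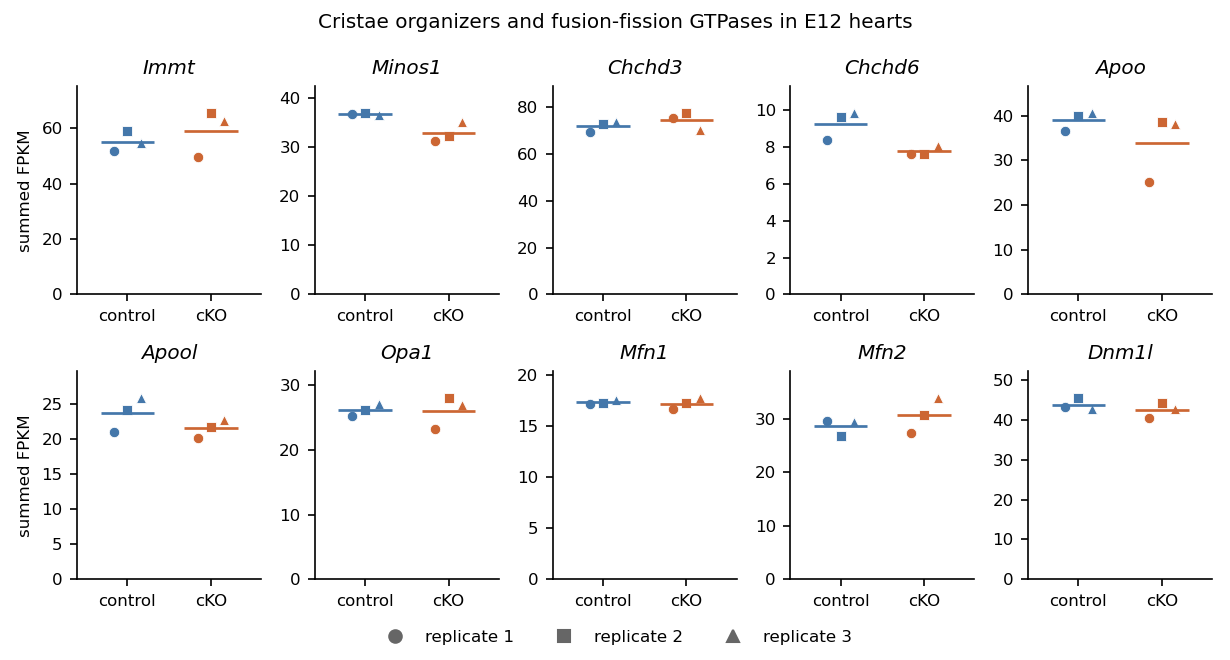
Summed FPKM of the 10 genes in each library; points are single libraries (shape gives the replicate number), horizontal lines are group means, and each vertical axis starts at 0. Control and cKO libraries overlap in 8 of the 10 genes, and only for Chchd6 and Minos1 do all 3 cKO libraries lie below all 3 controls.

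In control hearts the order of the levels, which FPKM allows to be compared between genes because it is scaled by length, ran from Chchd3 to Chchd6. Chchd3 averaged 71.9 ± 2.22 FPKM (SD, n = 3), above 94.6% of the genes tested. Immt and Dnm1l followed at 55.2 ± 3.74 and 43.8 ± 1.42 FPKM. Apoo and Minos1, at 39.02 ± 2.22 and 36.7 ± 0.197 FPKM, overlapped each other and came next. Mfn2 (28.6 ± 1.61), Opa1 (26.1 ± 0.853) and Apool (23.6 ± 2.44 FPKM) formed a run in which each overlapped its neighbour. Mfn1 at 17.3 ± 0.207 and Chchd6 at 9.26 ± 0.797 FPKM stood apart below them, Chchd6 close to the middle of all genes tested, with 50.1% of them lower. The related pairs thus differed in level: MIC19 mRNA (Chchd3) was far above that of its homologue MIC25 (Chchd6), and Mfn2 was above Mfn1. The same neighbours stood in the same order of means in cKO hearts, except that Minos1 and Mfn2 overlapped there and Opa1 and Apool did not.

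Among the core MICOS subunits, Immt (ENSMUSG00000052337, chr6:71831331-71877388, plus strand, GRCm38) encodes MIC60, the scaffold on which the complex is built. Its levels were 51.7, 59.1 and 54.9 FPKM in control replicates 1, 2 and 3 and 49.5, 65.5 and 62.7 FPKM in the cKO replicates. The cKO libraries held both the lowest and the highest value, so the groups overlapped. The log2 fold change was 0.09 (95% interval -0.18 to 0.36, standard error 0.12, adjusted p = 0.765 from limma). It was 0.21 without cKO replicate 1 (unadjusted p = 0.0589 from limma), 0.01 without cKO replicate 2 and 0.20 with the erythroid level as a covariate.

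Minos1 (ENSMUSG00000050608, chr4:139101814-139131113, minus strand) encodes MIC10, the small subunit whose oligomers curve the membrane at the cristae neck. The table gave it a single transcript model, at 36.7, 36.9 and 36.6 FPKM in the controls and 31.4, 32.4 and 35.2 FPKM in the cKO libraries. The controls lay within 1 FPKM of each other and every cKO library was below them, the library labelled cKO replicate 3 nearest to them. The log2 fold change was -0.15 (95% interval -0.33 to 0.03, standard error 0.08), unadjusted p = 0.0844 and adjusted p = 0.399 from limma. Without that library it was -0.20, with an unadjusted p of 0.0486 and an adjusted p of 0.323 from limma.

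The peripheral subunits Chchd3 (ENSMUSG00000053768, chr6:32790976-33060260, minus strand) and Chchd6 (ENSMUSG00000030086, chr6:89383146-89595652, minus strand) encode MIC19 and MIC25, which share a CHCH domain and belong to the MIC60 arm of the complex. Chchd6 stood at 8.35, 9.61 and 9.82 FPKM in the controls and at 7.62, 7.63 and 8.04 FPKM in the cKO libraries. All cKO values were below all control values, and the gap between the groups was smaller than the spread among the controls. The mean was 16.2% lower in cKO hearts. Its log2 fold change was -0.22 (95% interval -0.44 to -0.01, standard error 0.09), unadjusted p = 0.0412 and adjusted p = 0.313 from limma. Over the alternatives it ran from -0.32 to -0.18, and its unadjusted p was not under 0.05 without control replicate 2 or 3, without cKO replicate 1 or 2, or with the erythroid level as a covariate.

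Chchd3 was at 69.4, 72.9 and 73.6 FPKM in the controls and at 75.3, 77.3 and 70.0 FPKM in the cKO libraries. The highest values belonged to cKO replicates 1 and 2, but the library labelled cKO replicate 3 fell among the controls. The log2 fold change was 0.04 (95% interval -0.14 to 0.23, adjusted p = 0.834 from limma). Without the library labelled cKO replicate 3 it was 0.08 and the groups did not overlap, while without control replicate 1 it was 0.02 and without cKO replicate 2 it was 0.01. Scaling each library to the same sum turned this sign, to -0.04, with the median of all genes at -0.10.

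The ratio of Chchd6 to Chchd3 within each library, which does not depend on how libraries are scaled, was 0.120, 0.132 and 0.134 in the controls and 0.101, 0.0986 and 0.115 in the cKO libraries. The mean ratio was 0.129 ± 0.00723 (SD, n = 3) over the controls and 0.105 ± 0.00866 (SD, n = 3) over the cKO libraries, with no overlap. The difference of -0.30 in log2 ratio had an exact permutation p of 0.1 (two-sided, 20 splits), the smallest that 3 against 3 libraries allow, and an adjusted p of 0.4 over the 4 ratios tested.

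Apoo (ENSMUSG00000079508, chrX:94367117-94417093, plus strand) and Apool (ENSMUSG00000025525, chrX:112311334-112372755, plus strand), both on the X chromosome, encode MIC26 and MIC27, the apolipoprotein O family subunits. Apoo was at 36.5, 40.0 and 40.6 FPKM in the controls and at 25.1, 38.6 and 38.1 FPKM in the cKO libraries. A single library, cKO replicate 1, was far below the other 5. The log2 fold change of -0.22 (95% interval -0.58 to 0.14, adjusted p = 0.556 from limma) became -0.02 without that library and -0.06 with the erythroid level as a covariate.

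Apool was at 21.0, 24.1 and 25.8 FPKM in the controls and at 20.2, 21.7 and 22.7 FPKM in the cKO libraries. The groups overlapped through control replicate 1, and the log2 fold change was -0.12 (95% interval -0.35 to 0.10, adjusted p = 0.596 from limma). It was -0.20 without control replicate 1, -0.06 without control replicate 3 and -0.08 without cKO replicate 1. The ratio of Apool to Apoo was 0.604 ± 0.0304 (SD, n = 3) in controls against 0.654 ± 0.131 (SD, n = 3) in cKO hearts, and the groups overlapped (exact permutation p = 0.9, two-sided, adjusted p = 1.0).

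Of the 6 MICOS genes, 4 had lower and 2 higher cKO means, and their median log2 fold change was -0.14. That median was -0.05 without cKO replicate 1, -0.09 with the erythroid level as a covariate and -0.22 with each library scaled to the same sum. For 2 of the 10 genes the groups did not overlap, Chchd6 and Minos1, both lower, where 13.0% of all genes tested lay wholly lower, 7.74% wholly higher and 20.8% in either direction. Without control replicate 1 the number was 4, all lower, where 26.8% of all genes did not overlap. Without cKO replicate 1 it was also 4, with Immt and Mfn2 higher, where 30.1% of all genes did not overlap. Scaling to a sum that leaves out erythroid and mitochondrial genome genes added Mfn1, lower, beside 21.7% of all genes, and the most abundant transcript model of each gene added Mfn2, higher, beside 19.4%.

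**Figure D2:**
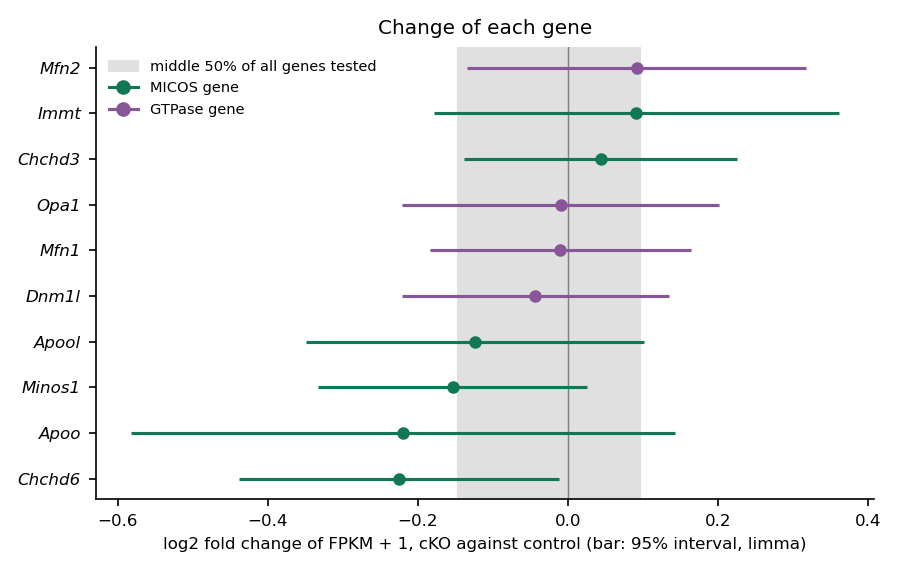
Log2 fold change of FPKM + 1 between cKO and control hearts for the 10 genes (points) with 95% intervals from limma (bars), MICOS genes in green and GTPase genes in purple; the grey band is the middle 50% of all 13260 genes tested. Only the interval of Chchd6, -0.44 to -0.01, leaves out 0.

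The 4 GTPase genes had a median log2 fold change of -0.01, 3 of them lower and 1 higher by mean. With a library left out this median ran from -0.04 to 0.04, the highest without cKO replicate 1, and it was above 0 also without control replicate 3, with the erythroid covariate and on the most abundant transcript models. Opa1 (ENSMUSG00000038084, chr16:29579334-29654884, plus strand) was at 25.3, 26.1 and 27.0 FPKM in the controls and at 23.2, 28.0 and 26.9 FPKM in the cKO libraries. The cKO libraries bracketed the controls. Its log2 fold change was -0.01 (95% interval -0.22 to 0.20, adjusted p = 0.973 from limma), and its sign turned to 0.07 without cKO replicate 1 and with the erythroid level as a covariate.

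Mfn1 (ENSMUSG00000027668, chr3:32529465-32579239, plus strand) gave 17.1, 17.3 and 17.5 FPKM in the controls and 16.6, 17.3 and 17.7 FPKM in the cKO libraries. These were the steadiest values of the 4 GTPase genes, and the log2 fold change was -0.01 (95% interval -0.18 to 0.16, adjusted p = 0.966 from limma), with the opposite sign, 0.01, without cKO replicate 1.

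Mfn2 (ENSMUSG00000029020, chr4:147873599-147904704, minus strand) also tethers mitochondria to the endoplasmic reticulum. It was at 29.6, 26.8 and 29.5 FPKM in the controls and at 27.3, 30.7 and 33.9 FPKM in the cKO libraries. The highest value was in the library labelled cKO replicate 3, and cKO replicate 1 lay within the controls. The log2 fold change was 0.09 (95% interval -0.13 to 0.32, adjusted p = 0.707 from limma). It was 0.02 without the library labelled cKO replicate 3, 0.05 without control replicate 2 and 0.17 without cKO replicate 1. The ratio of Mfn2 to Mfn1 was 1.65 ± 0.0932 (SD, n = 3) in controls against 1.78 ± 0.134 (SD, n = 3) in cKO hearts, an overlap (exact permutation p = 0.3, two-sided, adjusted p = 0.6).

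Dnm1l (ENSMUSG00000022789, chr16:16312230-16358959, minus strand), the fission GTPase, was at 43.2, 45.4 and 42.7 FPKM in the controls and at 40.5, 44.3 and 42.6 FPKM in the cKO libraries. The groups overlapped, and the log2 fold change was -0.04 (95% interval -0.22 to 0.13, adjusted p = 0.830 from limma). It was -0.01 without cKO replicate 1, -0.02 without control replicate 2, and -0.07 without cKO replicate 2, where the groups did not overlap. It was -0.13 with each library scaled to the same sum and -0.0028 with the erythroid covariate. The ratio of Opa1 to Dnm1l, fusion to fission GTPase, was 0.598 ± 0.0309 (SD, n = 3) in controls against 0.612 ± 0.0334 (SD, n = 3) in cKO hearts, with a log2 difference of 0.03 (exact permutation p = 1.0, two-sided, adjusted p = 1.0).

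By the rule set for neighbours in expression, the genes whose log2 values followed Chchd6 most closely over the 6 libraries, among 9041 genes with a mean of at least 5 FPKM, were Prkx (r = 0.979), Tmem258 (r = 0.978) and Cox7a2l (r = 0.975). Those nearest to Mfn2 were Gga1 (r = 0.986), Nelfa (r = 0.977) and Ctdnep1 (r = 0.972). With 6 libraries and this many genes, such values describe the closest of many patterns.

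The table splits each gene into transcript models, and the 10 genes had 40 of them. Of the 15 models of these genes that reached 10 FPKM in a library, 3 were listed at 0 in another library (20%), against 2.38% of all models that reached 10 FPKM and 0.113% of genes after summing. The tests of this section are therefore on FPKM summed by gene.

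**Figure D3:**
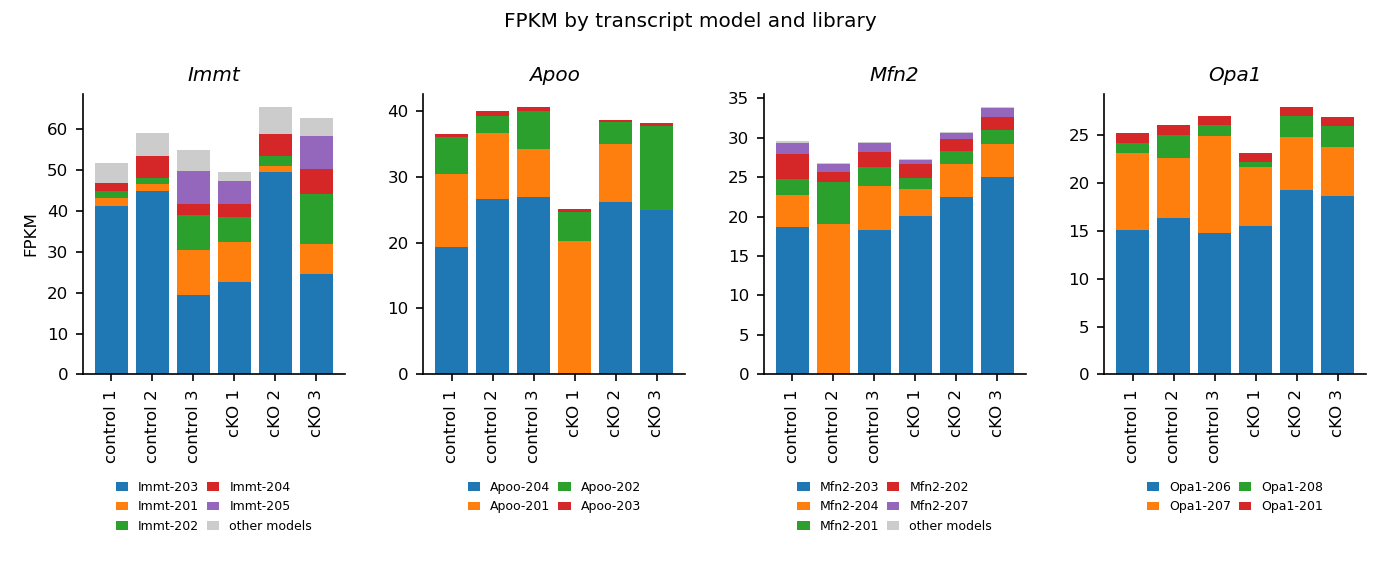
FPKM of the transcript models of Immt, Apoo, Mfn2 and Opa1, stacked by library, with control replicates 1 to 3 on the left and cKO replicates 1 to 3 on the right of each panel. Apoo-204 is missing from cKO replicate 1, Apoo-201 from cKO replicate 3 and Mfn2-203 from control replicate 2, and the split of Immt follows libraries and not genotype.

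For Apoo, the model Apoo-204 had 19.3, 26.6 and 26.9 FPKM in the controls, is listed at 0 in cKO replicate 1 and had 26.1 and 25.01 FPKM in cKO replicates 2 and 3. In cKO replicate 1, Apoo-201 took 20.2 FPKM, its highest value, and it is listed at 0 in the library labelled cKO replicate 3. The library with the low Apoo sum was thus the one in which the leading model was missing. For Mfn2, the model Mfn2-203 had 18.7 and 18.2 FPKM in control replicates 1 and 3 and 20.03, 22.5 and 25.01 FPKM in the cKO libraries, but is listed at 0 in control replicate 2, where Mfn2-204 took 19.1 FPKM. With only the most abundant model of each gene, the log2 fold change of Apoo was -1.49 and that of Mfn2 was 1.70 (unadjusted p = 0.277 and 0.182 from limma).

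Immt showed the same division across genotypes. Its leading model, Immt-203, took 79.8, 76.1 and 35.3% of the gene in the controls and 45.8, 75.5 and 39.3% in the cKO libraries. Control replicate 3 and cKO replicates 1 and 3 were thus alike, as were control replicates 1 and 2 and cKO replicate 2. Immt-205 is listed at 0 in the second of these sets and Immt-206 in the first.

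Opa1 is known for alternative exons in the part of the mRNA that codes for the region between the mitochondrial import signal and the GTPase domain, and its isoforms differ in how proteases cut them. Its table models differed by a coding exon of 111 bases (chr16:29597586-29597696, plus strand) and by one of 54 bases (chr16:29588823-29588876, plus strand). Both are printed in capitals between 12 bases of the exons around them, since the 111-base exon was the only coding exon of the 10 genes, among those with a mean share of 5 to 95%, whose share did not overlap between the groups.
Opa1 111-base exon included: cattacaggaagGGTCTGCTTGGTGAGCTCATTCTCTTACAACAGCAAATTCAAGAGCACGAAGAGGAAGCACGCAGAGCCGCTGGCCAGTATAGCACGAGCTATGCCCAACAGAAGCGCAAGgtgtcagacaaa
Opa1 111-base exon skipped: cattacaggaaggtgtcagacaaa
Opa1 54-base exon included: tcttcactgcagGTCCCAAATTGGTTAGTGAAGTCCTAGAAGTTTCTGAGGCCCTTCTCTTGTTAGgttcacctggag
Opa1 54-base exon skipped: tcttcactgcaggttcacctggag

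Models with the 111-base exon held 36.1, 33.1 and 42.1% of Opa1 FPKM in the controls and 29.0, 27.8 and 27.2% in the cKO libraries. Every cKO library was below every control, the mean being 37.1 ± 4.58% (SD, n = 3) in controls against 28.0 ± 0.941% (SD, n = 3) in cKO hearts. In FPKM, models with the exon had 9.13, 8.63 and 11.4 in the controls and 6.73, 7.76 and 7.30 in the cKO libraries, and models without it 16.2, 17.5 and 15.6 against 16.5, 20.2 and 19.6. The share of the 54-base exon overlapped between the groups, at 8.26, 13.4 and 7.81% in the controls and 6.53, 11.2 and 11.5% in the cKO libraries. The 111-base exon was singled out after its values were seen, so no test was made. Over the 12 cassette exons of 5 of these genes the groups did not overlap for 2, and over all 3940 such exons of the table they did not overlap for 11.2%. The other of the 2 was a noncoding exon of Mfn2. Its share was 7.06, 19.8 and 8.34% in the controls and 5.09, 5.28 and 5.30% in the cKO libraries. The highest share was that of control replicate 2, in which Mfn2-203 is listed at 0. The other controls were also above every cKO library.

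**Figure D4:**
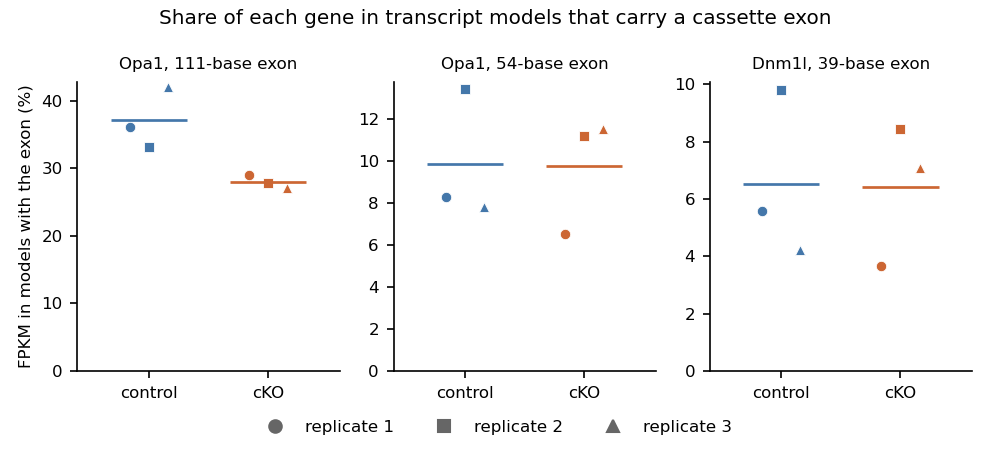
Percent of FPKM in transcript models that include a cassette exon, for 3 coding exons of Opa1 and Dnm1l; points are libraries (shape gives the replicate number), lines are group means, and axes start at 0. Only the 111-base exon of Opa1 separates control from cKO libraries.

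Dnm1l has a 39-base coding exon (chr16:16342697-16342735, minus strand) and, farther toward the 3′ end, a 33-base exon next to a 78-base exon (chr16:16318445-16318477 and chr16:16318764-16318841, minus strand). The 39-base exon is printed, in capitals between 12 bases of its neighbours, as an exon whose share overlapped between the groups.
Dnm1l 39-base exon included: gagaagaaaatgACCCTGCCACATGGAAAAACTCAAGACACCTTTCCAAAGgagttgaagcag
Dnm1l 39-base exon skipped: gagaagaaaatggagttgaagcag
Its share was 5.59, 9.79 and 4.20% in the controls and 3.67, 8.45 and 7.07% in the cKO libraries. The 33-base and 78-base exons, carried by the same model, had shares of 13.5, 12.0 and 12.6% in the controls and 14.1, 12.2 and 21.0% in the cKO libraries, the one high value being that of the library labelled cKO replicate 3. Most Dnm1l mRNA in these hearts was therefore assigned to the model without any of the 3 exons, Dnm1l-201, at 71.97 to 83.2% of the gene.

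The promoters were read from the RefSeq table (GRCm38.p6, 250 bases before to 50 after each start), which held windows for all 10 genes, with Minos1 under the symbol Micos10. They were searched on both strands for the core GCATGCG bound by NRF1 and the core CCGGAAG bound by ETS factors such as NRF2/GABP, which are known regulators of nuclear genes for mitochondria, and for the ATF4-type sequence TGATGNAA. The ETS core stood in the promoters of 5 of the 10 genes, Immt, Minos1, Chchd3, Mfn1 and Dnm1l, against 9.93% of the 27025 genes with a window and 20.5% of the 9361 tested coding genes with one. Each is shown with 8 bases on each side, in the orientation of the gene and with the core or its reverse complement in capitals, because it was found in more of these genes than the other sequences.
Immt, chr6:71831070-71831369: agcgcgacCCGGAAGgagaacct
Immt, chr6:71831070-71831369: cggtggccCTTCCGGtgcgccgg
Minos1, chr4:139130988-139131287: aagaaaagCCGGAAGccagggac
Minos1, chr4:139130988-139131287: ggctccggCCGGAAGcttatggt
Chchd3, chr6:33060211-33060510: cagaggctCCGGAAGccctatta
Mfn1, chr3:32529232-32529531: ccgaagcgCCGGAAGtagccgcc
Dnm1l, chr16:16358526-16358825: gtcgcttcCTTCCGGccgctgag

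The coordinates are those of the windows searched. The NRF1 core stood only in the Opa1 window (chr16:29579084-29579383), against 4.01% of all genes and 7.45% of those tested, where matches on both strands overlap by all but 1 base. The matched letters are in capitals.
Opa1: gctccccgCGCATGCgcatgtca
The ATF4-type sequence stood in 0 of the 10 windows, against 4.51% of all genes and 2.60% of those tested. The shares of tested genes rest on the 77.7% of tested coding genes that had a window. Chchd6, Apoo, Apool and Mfn2 held none of the 3 sequences in these windows.

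Genes taken to work with these 10 were put into 6 lists. Of 58 partner genes that passed the filter, 12 had an unadjusted p under 0.05 (20.7%, against 15.0% of all genes tested), 10 of them higher and 2 lower in cKO hearts, and 0 had an adjusted p under 0.05 by limma. Over all genes tested the shares were 5.57% in the higher and 9.43% in the lower direction. The median log2 fold change of the 58 genes was 0.02. The adjusted p of these 12 genes from limma ran from 0.162 to 0.303, so the values below are descriptions of genes that did not pass. Over the 15 alternatives, Hspa9 had an unadjusted p under 0.05 in 15, Mtfr1 and Crls1 in 14, Atad3a and Afg3l2 in 13, and the other 7 in 5 to 10. With each library scaled to the same sum 4 of the 12 genes were past that line, with the erythroid covariate 6, and without the library labelled cKO replicate 3 also 6. The genes lost without that library were Romo1, March5, Dnm2, Miga2, Fam210b and Tomm40, at unadjusted p from limma of 0.0854, 0.118, 0.0525, 0.0620, 0.0713 and 0.0861. Of the 46 partners with an unadjusted p of 0.05 or more, 28 turned sign under at least 1 alternative and 18 did not. Of these 46, Mief1, Mief2, Vdac3, Hspd1 and Phb2 kept their sign, and the direction of the others named below is not firm.

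**Figure D5:**
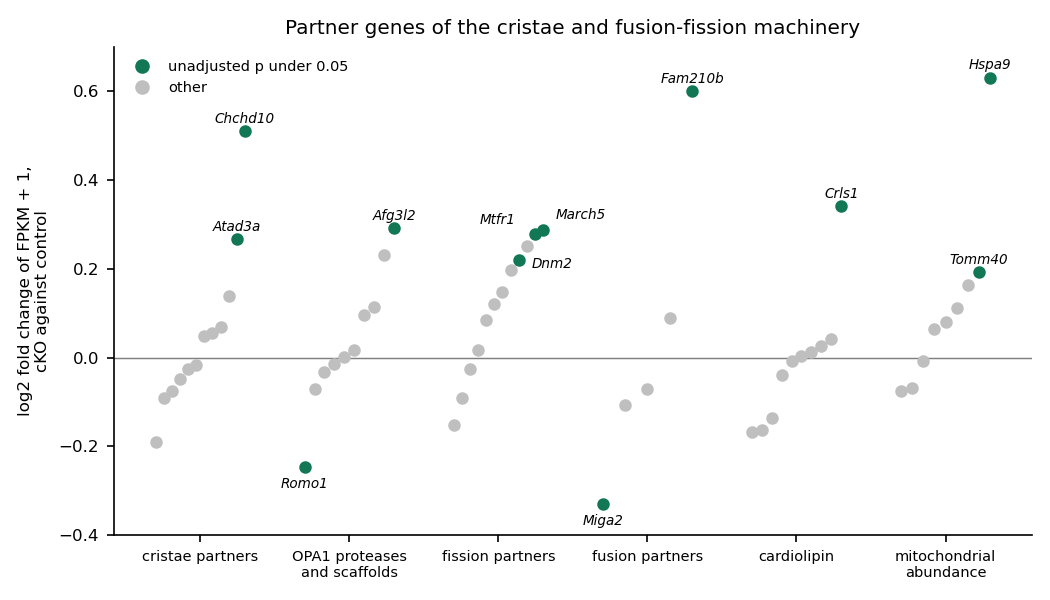
Log2 fold change of FPKM + 1 between cKO and control hearts for the 58 partner genes, grouped by list; green points with names have an unadjusted p under 0.05 from limma, grey points do not. The green points lie mostly above 0, from Tomm40 at 0.19 to Hspa9 at 0.63, with Romo1 and Miga2 below it.

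Among 12 partners in cristae structure, 6 had higher and 6 lower means, and 2 had an unadjusted p under 0.05, both higher. Chchd10, which encodes a small intermembrane-space protein reported to interact with MICOS, was at 71.4, 44.6 and 53.9 FPKM in the controls and at 93.6, 87.3 and 61.5 FPKM in the cKO libraries. The library labelled cKO replicate 3 lay among the controls, and the log2 fold change was 0.51 (standard error 0.20). It was 0.35 without control replicate 2 (unadjusted p = 0.116 from limma), 0.43 with each library scaled to the same sum (unadjusted p = 0.0515 from limma) and 1.40 on its most abundant transcript model. Atad3a, an inner-membrane ATPase of cristae and mitochondrial DNA nucleoids, went from 19.7 ± 1.03 (SD, n = 3) to 24.0 ± 1.67 FPKM (SD, n = 3), without overlap and with a log2 fold change of 0.27, or 0.19 with each library scaled to the same sum (unadjusted p = 0.170 from limma). Samm50, the outer-membrane partner of MIC60, had a log2 fold change of 0.05 and 2410015M20Rik, the remaining MICOS subunit MIC13, of -0.02.

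Among 10 proteases and scaffolds that act on OPA1, 2 had an unadjusted p under 0.05. Afg3l2, a subunit of the matrix AAA protease, was at 28.4, 29.0 and 28.7 FPKM in the controls and at 37.4, 31.1 and 37.9 FPKM in the cKO libraries, all above the controls (log2 fold change 0.29, standard error 0.09). The higher values were those of the libraries with the larger erythroid share, and with the erythroid level as a covariate the log2 fold change was 0.17 (unadjusted p = 0.102 from limma). Romo1, which encodes an inner-membrane protein linked to OPA1 oligomers, went from 32.5 ± 1.66 (SD, n = 3) to 27.3 ± 3.11 FPKM (SD, n = 3), with an overlap through cKO replicate 1 (log2 fold change -0.25, unadjusted p = 0.0368 from limma, or 0.0528 with a block for the replicate). Oma1 and Yme1l1, the proteases that cut OPA1, had log2 fold changes of 0.0024 and -0.07.

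Of 12 fission partners, 9 had higher means in cKO hearts and 3 had an unadjusted p under 0.05, all higher. Of all genes tested, 55% had a log2 fold change below 0. Mtfr1, which encodes a fission regulator, was at 15.2, 17.1 and 15.7 FPKM in the controls and at 19.4, 19.5 and 19.9 FPKM in the cKO libraries. The cKO libraries lay close together above every control, the one labelled cKO replicate 3 included, and the log2 fold change was 0.28 (standard error 0.08, adjusted p = 0.190 from limma). With each library scaled to the same sum, the unadjusted p of Mtfr1 was 0.114 from limma. March5, a ubiquitin ligase of the outer membrane that acts on DRP1 and mitofusins, and Dnm2, dynamin 2, had log2 fold changes of 0.29 and 0.22. With the erythroid covariate March5 was at 0.15, and without the library labelled cKO replicate 3 at 0.19. The unadjusted p of March5 from limma was also not under 0.05 with each library scaled to the same sum. Dnm2 was at 0.14 with each library scaled to the same sum, 0.16 with the covariate and 0.89 on its most abundant transcript model (unadjusted p = 0.228, 0.117 and 0.168 from limma). The outer-membrane proteins known to bind DRP1, Mff, Fis1, Mief1 and Mief2, had log2 fold changes of 0.12, -0.03, 0.09 and -0.09. Mff was at 0.01 without the library labelled cKO replicate 3, 0.29 without cKO replicate 2 and -0.10 with the erythroid covariate.

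The fusion list held 5 tested genes, and whether Fam210b, 1 of them, acts in fusion was not examined here. Fam210b stood at 13.6, 12.9 and 14.7 FPKM in the controls and at 26.6, 14.0 and 25.9 FPKM in the cKO libraries. Its high values were those of cKO replicates 1 and 3, the libraries with the high erythroid share, and the log2 fold change was 0.60 (standard error 0.22), or 0.20 with the erythroid level as a covariate (unadjusted p = 0.131 from limma). Miga2, mitoguardin 2, was at 15.8, 12.0 and 11.6 FPKM in the controls and at 10.8, 9.96 and 9.67 FPKM in the cKO libraries, all below the controls (log2 fold change -0.33, standard error 0.12). The value was -0.20 without control replicate 1, and on its most abundant transcript model alone it was 1.08, in the opposite direction.

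Of 10 genes for cardiolipin, the lipid that MICOS and OPA1 bind, only Crls1, cardiolipin synthase, had an unadjusted p under 0.05. It was at 11.9, 13.1 and 14.0 FPKM in the controls and at 16.8, 18.2 and 15.2 FPKM in the cKO libraries, all above the controls (log2 fold change 0.34, standard error 0.10, adjusted p = 0.198 from limma). With each library scaled to the same sum, the unadjusted p of Crls1 was 0.0727 from limma. Taz, which remodels cardiolipin, had a log2 fold change of -0.04.

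Finally, 9 genes taken as a list for mitochondrial abundance were set beside the 10 genes. Their median log2 fold change was 0.08, with 6 of them higher and 3 lower by mean. The list includes the matrix chaperones Hspa9 and Hspd1, and whether its genes measure abundance in these mutants was not tested. The 3 lower were Vdac1, Tomm20 and Tfam at -0.08, -0.01 and -0.07, while Vdac2, Vdac3, Cs and Hspd1 were at 0.07, 0.11, 0.08 and 0.16. Hspa9, the matrix chaperone mortalin, was at 112, 127 and 126 FPKM in the controls and at 205, 226 and 145 FPKM in the cKO libraries, with no overlap (log2 fold change 0.63, standard error 0.16, adjusted p = 0.162 from limma). Without the library labelled cKO replicate 3, its log2 fold change was 0.82 and its adjusted p 0.0076 from limma. Tomm40, the channel of the outer-membrane import complex, went from 31.3 ± 0.498 (SD, n = 3) to 35.9 ± 1.31 FPKM (SD, n = 3). Its log2 fold change was 0.19 (unadjusted p = 0.0317 from limma). That p was under 0.05 in 5 of the 15 alternatives and reached 0.533 in another.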

How the data were processed

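Total RNA of pooled embryonic hearts was depleted of ribosomal RNA and made into strand-specific libraries, 3 per genotype. The authors deposited 1 table of FPKM values for 60776 transcript models, with 0 columns of other samples. The submitters' processing notes name Bowtie2 2.2.8, HISAT2, StringTie 1.3.1, Cuffdiff 2.1.1 and the build mm9, without the role of each. The annotation release is not given in the sources used here, and the depth is unknown.

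Transcript FPKM were summed by gene identifier (26191 genes, 27 of them with symbols restored from dates). The 13260 genes that reached 1 FPKM in 3 or more of the 6 libraries were compared on log2(FPKM + 1), which understates changes of low genes, with limma 3.58.1 (R 4.3.3, eBayes with trend, no covariate) and Benjamini-Hochberg adjustment. The analysis was tested on simulated data. Ratios were compared with an exact permutation test. All 40 models of the 10 genes matched GENCODE M21 (GRCm38) by transcript ID, which supplied exons, sequences and coordinates, since the table gives no coordinates and its build differs. Exon shares are FPKM of models with the exon over those with and without it. Numbers of replicates mark separate pools of embryos. All 10 genes, Mrps5, the partners with an unadjusted p under 0.05 (at most 4 a list, by p) and 3 neighbours in expression were to be named. Other genes named were chosen for their known role, except Tnni1, Myh6, Ttn and Myl2, picked from the fixed markers after their values were seen. The genes and lists were chosen with earlier results of these data known. Ptpmt1 was not in the table by that symbol, and Gdap1 and Pld6 did not pass the filter. Alternatives covered scaling, the value added, the filter, the erythroid level, transcript models, a replicate block and each library left out. A result for 1 further exon is not reported here.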

Additional observations from a re-analysis of the deposited data

How the results depend on the processing

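No alternative gave any of the 10 genes an adjusted p under 0.05. The count of the 10 genes at an unadjusted p under 0.05, 1 at first, was 2 without the filter, 2 with scaling that leaves out erythroid and mitochondrial genome genes, 0 with the erythroid covariate, and 0 to 2 with a library left out (2 without the library labelled cKO replicate 3, 0 without control replicates 2 or 3 or cKO replicates 1 or 2). The count of the 10 genes with no overlap was 3 with that scaling and 3 on the most abundant model, and ran from 2 to 4 with a library left out, where the share of all genes ran from 26.8 to 35.7%.

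Some signs turned, and the cause was not tested. On the most abundant transcript model, Immt was at -0.12, Opa1 at 0.19, Mfn1 at 0.056 and Miga2 at 1.08, while Mfn2 moved from 0.09 to 1.70 and Apoo from -0.22 to -1.49. With each library scaled to the same sum, Chchd3 was at -0.040. With the erythroid covariate Opa1 was at 0.071. With a library left out Opa1 ran from -0.062 to 0.068 (0.013 without control replicate 3), Mfn1 from -0.031 to 0.013, and the log2 ratio of Apool to Apoo from -0.060 to 0.197, below 0 without cKO replicate 1. Apool to Apoo and Mfn2 to Mfn1 gave no ratio on the most abundant model, which is listed at 0 in a library.

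Counts of partners at an unadjusted p under 0.05 moved as follows. For cristae partners (2) they were 1 without the filter, 0 scaled to the same sum, 1 with the scaling that leaves out erythroid and mitochondrial genome genes, and 0 to 2 with a library left out. For OPA1 proteases and scaffolds (2) they were 1 scaled to the same sum, 1 with the erythroid covariate, 1 without trend, and 1 to 3 with a library left out. Without the filter Phb2 was gained (unadjusted p = 0.0480 from limma). For fission partners (3) the counts were 0 scaled to the same sum, 1 with the covariate, and 1 to 3 with a library left out. On the most abundant model Dnm2 was lost. For fusion partners (2) the counts were 0 with the covariate, 1 on the most abundant model, and 0 to 2 with a library left out. For cardiolipin genes (1) the count was 0 scaled to the same sum. For genes of mitochondrial abundance (2) it was 1 under both scalings, with the covariate, without trend and on the most abundant model, and 1 to 2 with a library left out.

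With scaling to the same sum, 364 genes were higher and 1620 lower at an unadjusted p under 0.05, against 739 and 1251, and the median of all genes was -0.10. With the erythroid covariate 667 were higher and 692 lower. Genes at an adjusted p under 0.05 numbered 11, and from 3 to 261 with a library left out, 261 without the library labelled cKO replicate 3 and 126 without cKO replicate 2. They numbered 107 scaled to the same sum, 16 with 0.1 added, 6 without the filter, 6 without trend, 9 with the covariate and 4 on the most abundant model. With a library left out, Fam210b (0.89 without cKO replicate 2) and Hspa9 (0.82 without the library labelled cKO replicate 3) passed that line, and Tnnt2 did when scaled to the same sum (-0.68). Fam210b was at 0.20 with the covariate.

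Libraries with the same replicate number deviated together at r = 0.217, 0.110 and 0.0901, not all over 0.1, so the numbers were not taken to pair them, although each correlated best with its own number. With the replicate block 4 genes had an adjusted p under 0.05 and 2221 an unadjusted p under 0.05, against 1990. The block left each call of the 10 genes on its side of both lines, with an unadjusted p of 0.0474 for Chchd6 and 0.0813 for Minos1 and an adjusted p of 0.292 for Chchd6 from limma. List counts were equal, with Romo1 lost (unadjusted p of 0.0528 from limma) and Phb2 gained (0.0193, from 0.0510). For Mrps5 the unadjusted p was 0.0326 with the block and 0.0525 without it.

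The values rest on 3 pools a group whose depth is unknown, and models of one gene cannot be told apart with the certainty of the sum.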
